A study of Mus musculus with 23 samples.

Results

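Heat shock chaperones are the proteins that bind unfolded or partly folded polypeptides and, with the help of ATP and cochaperones, return them to a folded state, hand them on or pass them to degradation. The cytosolic members work as a relay. J-domain proteins of the HSP40 family bring a client to HSP70, HSP110 proteins exchange the nucleotide of HSP70, HSP90 finishes the folding of many kinases and receptors, and small heat shock proteins hold unfolded proteins without using ATP. In mitochondria, HSP60 and its lid HSP10 form a closed folding chamber. Some of these genes are expressed at high levels in all growing cells, while others are low until heat, oxidants or protein damage release the transcription factor HSF1 to their promoters.

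The 10 chaperone genes described here were taken by gene symbol from the 47643 genes of the expression table. They are the HSP70 genes Hspa1a, Hspa1b and Hspa8, the HSP110 gene Hsph1, the HSP40 gene Dnajb1, the small heat shock genes Hspb1 and Hspb8, the cytosolic HSP90 gene Hsp90aa1, and the mitochondrial pair Hspd1 (HSP60) and Hspe1 (HSP10). Values were read in 18 of the 23 libraries of the series. All were made from B16F10, a mouse melanoma cell line, as subcutaneous bulk tumors, as tumor cells sorted from digested tumors, or as cultured cells. In each sample type, 2 libraries each came from control cells, labeled WT, and from cells edited with sg492 or sg495, guides against the nuclear receptor gene Nr2f6. Edited cells had received Cy3-labeled sgRNA and Cas9 protein and had been sorted for Cy3. No isolation of single clones is described, so unedited cells may remain among them. The hosts of the tumors were C57BL/6 mice, whose own blood vessels, fibroblasts and leukocytes are part of a bulk tumor. Tumor cells were sorted with magnetic beads after 1 h of digestion with collagenase D at 30 °C, a step that bulk tumors and cultured cells are not described to have gone through. The sources do not say whether the 2 libraries of a group came from separate animals or cultures, so p-values measure the spread between these libraries only.

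Values are TPM, which are scaled to the length of each gene and to the whole library, so levels can be compared between genes. Libraries were sequenced to between 23000000 and 31000000 reads according to the labels, and the depth of a single library cannot be read from TPM. The number of genes with at least 1 TPM ran from 11925 to 13899 per library, and the chaperones together held between 0.654% and 0.873% of the TPM. Sample types were compared in 1 limma model of 18 libraries on log2(TPM + 1), averaged over control, sg492 and sg495 (6 libraries per sample type). Genes that averaged 1 TPM or more were tested, p-values were adjusted over all of them (Benjamini-Hochberg), and genes called are those under 0.05 with a change of 1.5-fold or more. Fold changes on this scale understate the change of genes of a few TPM.

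Labels were checked with Nr2f6 and with cell type markers. In sg495 libraries Nr2f6 was lower than in both controls of every sample type (17.22 and 15.76 against 25.83 and 25.24 TPM in bulk tumors, 10.6 and 12.18 against 20.32 and 17.73 in sorted cells, 18.55 and 22.43 against 31.88 and 32.9 in cultured cells). In sorted cells labeled sg492, Nr2f6 was at 19.84 and 25.7 TPM, not below control, and these are called the libraries labeled sg492 throughout. The summed TPM of the leukocyte markers was 505.81 to 1137.03 in bulk tumors, 9.01 to 17.8 in sorted cells and 4.24 to 7.64 in cultured cells, with Ptprc at 0 to 0.15 and Cd3e at 0 in sorted cells. Fibroblast markers summed to 356.73 to 992.27, 3.31 to 6.23 and 5.49 to 7.77 TPM in the same order. Endothelial markers summed to 100.71 to 120.36, 35.65 to 56.53 and 18.05 to 20.03 TPM, with Vwf at 13.39 to 31.79 TPM in sorted cells. Melanocyte markers were at 15671.7 to 16716.6, 15360.8 to 18109.3 and 17888.4 to 18267.8 TPM, as the label of a melanoma line says. In a bulk sample, fewer cells of a type and less RNA per cell cannot be told apart.

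HSF1 binds inverted repeats of a short unit, nGAAn. Promoters are shown for Hspa1b, its neighbor Hspa1a and Hspb1, whose levels differed between sample types, and for Hspe1, whose run of units is shared with Hspd1. Windows reach from 250 bases before to 50 bases after the annotated start and come from RefSeq (GRCm38.p6). The motif searched was a pair of inverted units, GAANNTTC or TTCNNGAA, on both strands, and matches may share a unit with the next match. Capitals mark the matching GAA and TTC units.
Hspa1b: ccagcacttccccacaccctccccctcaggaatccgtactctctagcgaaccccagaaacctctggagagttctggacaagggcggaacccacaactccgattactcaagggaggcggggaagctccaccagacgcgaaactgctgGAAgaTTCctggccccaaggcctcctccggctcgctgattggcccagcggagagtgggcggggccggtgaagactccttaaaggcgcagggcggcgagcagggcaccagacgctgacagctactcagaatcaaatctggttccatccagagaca
Hspa1a: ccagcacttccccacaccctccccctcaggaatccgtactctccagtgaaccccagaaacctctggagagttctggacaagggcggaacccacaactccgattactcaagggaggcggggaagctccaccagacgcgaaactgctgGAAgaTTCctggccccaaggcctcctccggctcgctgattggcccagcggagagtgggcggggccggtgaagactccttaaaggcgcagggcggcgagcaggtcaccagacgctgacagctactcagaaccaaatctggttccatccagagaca
Hspb1: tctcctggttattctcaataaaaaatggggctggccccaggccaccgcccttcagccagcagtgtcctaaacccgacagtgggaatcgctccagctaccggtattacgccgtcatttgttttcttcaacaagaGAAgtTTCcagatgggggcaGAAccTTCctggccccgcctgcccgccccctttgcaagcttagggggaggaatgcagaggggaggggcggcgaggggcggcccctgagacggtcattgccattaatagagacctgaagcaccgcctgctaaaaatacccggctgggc
Hspe1: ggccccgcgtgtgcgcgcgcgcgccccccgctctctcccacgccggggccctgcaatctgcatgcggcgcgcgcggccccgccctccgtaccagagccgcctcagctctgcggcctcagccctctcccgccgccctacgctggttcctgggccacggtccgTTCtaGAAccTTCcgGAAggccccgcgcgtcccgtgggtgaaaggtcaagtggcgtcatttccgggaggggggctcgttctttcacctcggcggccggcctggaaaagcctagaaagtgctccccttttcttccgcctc
The first window, of Hspa1b, lies at chr17:34959189-34959488 on the minus strand and holds 1 match that starts 104 bases upstream of the start site. The Hspa1a window, at chr17:34972107-34972406 on the minus strand, holds the same match at the same distance. Over their 300 bases these windows share 296 identical bases (98.7%). The Hspb1 window, at chr5:135887669-135887968 on the plus strand, holds matches 117 and 97 bases upstream. The Hspe1 window, at chr1:55087898-55088197 on the plus strand, holds a run of units with matches 89, 84 and 79 bases upstream. Hspe1 and Hspd1 are neighbors in opposite directions, and the same run lies in one of the Hspd1 windows, at chr1:55087883-55088182 on the minus strand, 144 to 134 bases upstream of that start.

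Among the other members, Hsph1 held a match 33 bases upstream and a pair 37 and 42 bases downstream of its start, Hspb8 held 1 match 3 bases downstream, and the 2 windows of Dnajb1 held none. The motif is common: it occurs in 15.1% of all 32851 windows. At least 3 linked units, as in Hspe1, Hspd1 and Hsph1, occur in 0.603% of the windows. A match describes letters and no binding was measured. Hspa8 and Hsp90aa1 are named without a window.

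In the genome (GRCm38, GENCODE M21), Hspa1a (chr17:34969190-34972156) and Hspa1b (chr17:34956436-34959238) lie on the minus strand 9951 bases apart. Their transcripts, of 2967 and 2803 bases, are identical at 93.6% of aligned bases. Of the 75-base stretches of the Hspa1a transcript, the length of a read, 52.7% also occur in Hspa1b, and 55.8% of those of Hspa1b occur in Hspa1a. How a read is divided between these genes is therefore uncertain, and their sum is given beside each. Hspd1 (chr1:55077835-55088243, minus strand) and Hspe1 (chr1:55088132-55091307, plus strand) overlap by 112 bases, and whether strand was used in counting is not stated. Other members lie at chr9:40800984-40810087 (Hspa8), chr5:149614287-149636376 (Hsph1), chr8:83608193-83612653 (Dnajb1), chr5:135887919-135889563 (Hspb1), chr5:116408491-116422864 (Hspb8) and chr12:110690605-110702728 (Hsp90aa1). Processed copies of Hspa8, Hspd1 and Hspe1 are known in the mouse genome, and reads shared with them were not examined. Values are sums over all exons of a gene, UTRs included.

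The members differed widely in level. Hspa8, the constitutive cytosolic HSP70, was highest in every library, with medians of 3644.57 TPM in bulk tumors, 3520.82 in sorted cells and 3973.03 in cultured cells. Hsp90aa1, Hspd1 and Hspe1 followed in this order, with medians in cultured cells of 1871.98, 1246.72 and 599.755 TPM. Hsph1 (80.845 TPM), Dnajb1 (44.91) and Hspb8 (23.565) were lower, and Hspa1b (4.03) was the lowest member detected in culture. Hspa1a and Hspb1 were listed at 0 in all 6 cultured libraries. In cultured cells the ranges of neighbors in this order did not overlap, from Hspa8 down to Hspa1b. In sorted cells Hspa1b (median 86.615 TPM) took a place between Hsph1 (109.89) and Dnajb1 (59.95), and the ranges of these 3 genes overlapped. In bulk tumors Hspb8 (18.98), Hspb1 (15.005) and Hspa1b (7.265) were the lowest of the members above 2 TPM, and the range of Hspb1 overlapped that of each neighbor.

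**Figure D1:**
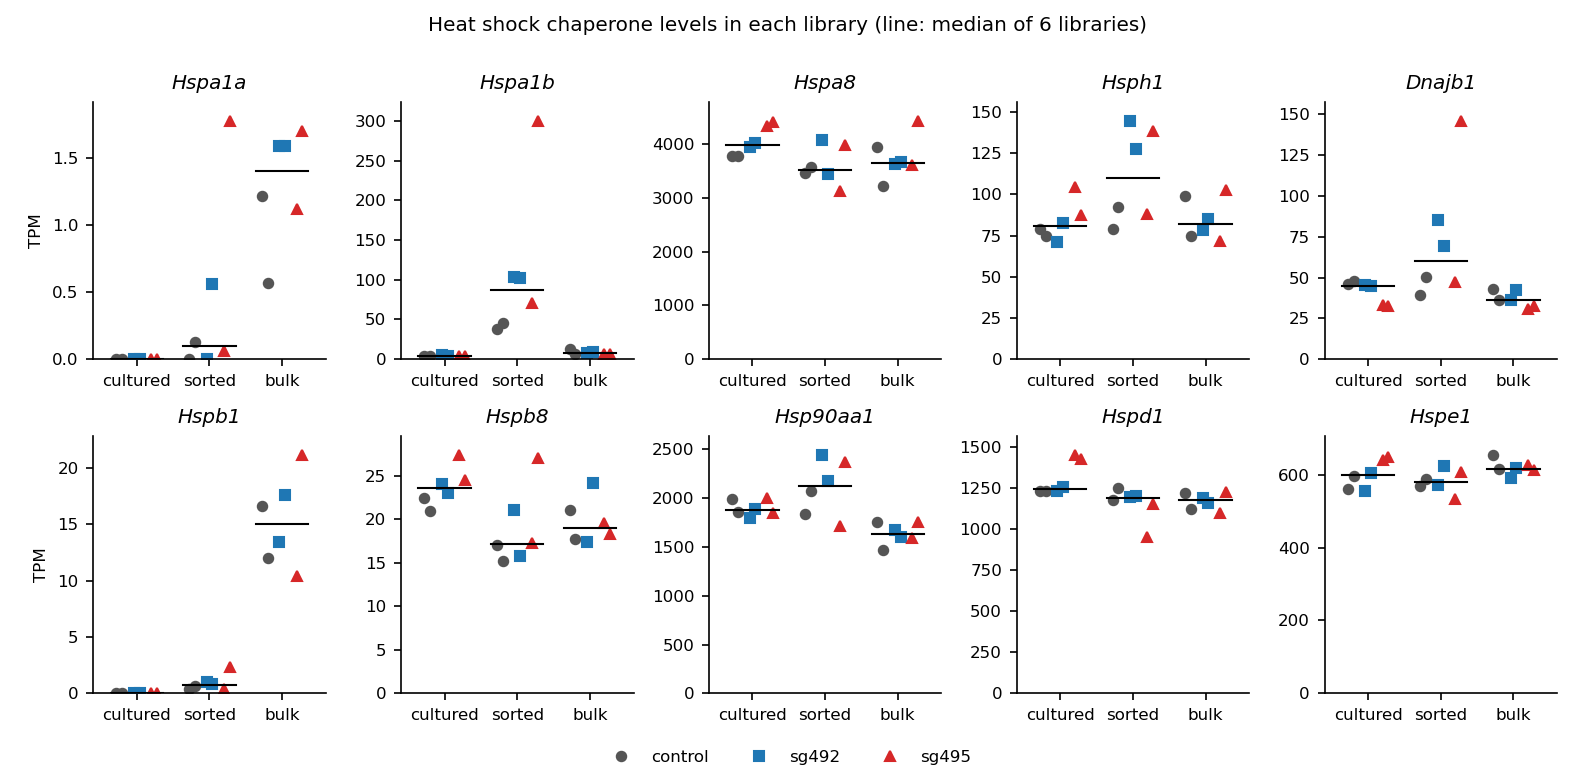
TPM of the chaperones in each of the 18 libraries, one panel per gene with its own linear axis from 0, grouped by sample type and by control, sg492 and sg495; each point is 1 library and the line is the median of 6. All 6 sorted libraries of Hspa1b (38.11 to 300.21 TPM) lie above every bulk and cultured library, and Hspb1 (10.42 to 21.16 TPM in bulk tumors) is near 0 elsewhere.

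Hspa1b, the stress-inducible HSP70, separated sorted tumor cells from the other sample types. Sorted cells held 38.11 and 45.47 TPM in control, 102.98 and 102.19 in libraries labeled sg492 and 71.04 and 300.21 in sg495. Cultured cells held 4.07 and 3.7, 5.49 and 4.57, and 3.44 and 3.99 TPM in the same order. Bulk tumors held 12.47 and 6.62, 7.63 and 9.67, and 6.9 and 6.57 TPM. The lowest sorted library was thus above the highest bulk library. Over the 6 sorted libraries, control and edited together, the coefficient of variation was 88.3%, against 17.4% over the 6 cultured libraries. The mean TPM of sorted cells was 26.1 times that of cultured cells and 13.2 times that of bulk tumors. Without replicate 2 of sg495, the highest sorted library, these ratios were 17.1 and 8.66.

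Against cultured cells, 3 of the 9 members tested were called higher in sorted cells and 0 lower, beside 14.6% of all 13152 genes called higher and 8.99% called lower. Hspa1a had a mean below 1 TPM over the 18 libraries and was not tested. Hspb1 passed this filter only through bulk tumors, with a mean of 15.195 TPM there, 0.935 in sorted cells and 0 in culture. The median log2 fold change was 0.14 over the members and −0.00246 over all genes. Hspa1b rose by 4.07 on the log2 scale (SE 0.268, 95% CI 3.48 to 4.65, limma adjusted p = 4.43e-08), which ranks 13 from the top among all genes tested. Dnajb1, the J-domain partner of inducible HSP70, rose by 0.67 (SE 0.201, adjusted p = 0.0105), a 1.59-fold change. Its values were 39.51 and 50.52 TPM in sorted control, 85.45 and 69.38 in libraries labeled sg492 and 47.14 and 146.08 in sg495, against 46.2 and 47.89, 45.22 and 44.6, and 33.42 and 32.5 in culture. Sorted and cultured control libraries of Dnajb1 therefore overlapped, and in control alone its log2 difference was −0.07. With the libraries labeled sg492 left out the difference was 0.62 and the adjusted p 0.0518.

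Hspb1, the small heat shock protein HSP27, was called higher in sorted cells (adjusted p = 0.00278) at very low levels. It averaged under 1 TPM in both sample types and was tested only because of its level in bulk tumors. It was at 0.42 and 0.64 TPM in control, 1.03 and 0.8 in libraries labeled sg492 and 0.36 and 2.36 in sg495, while all cultured libraries listed it at 0. In control alone its adjusted p was 0.209, and the count of members called was then 1. Hsph1, which exchanges the nucleotide of HSP70, was at 79.28 and 92.33 TPM in sorted control, 144.69 and 127.45 in libraries labeled sg492 and 88.16 and 138.56 in sg495, against 71.14 to 104.25 TPM in culture. Its log2 difference of 0.39 (SE 0.121) had an adjusted p of 0.0121 and stayed under 1.5-fold.

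Other members differed little between sorted and cultured cells. Hspb8, which works with the cochaperone BAG3 in the clearance of misfolded proteins, was at 15.25 to 27.05 TPM in sorted cells and 20.96 to 27.41 in culture (log2 difference −0.34, SE 0.113, adjusted p = 0.0192). For Hspd1 the difference was −0.18 (SE 0.0466, adjusted p = 0.00469), also under 1.5-fold. Hspa8 (−0.17, SE 0.0736, adjusted p = 0.0644), Hsp90aa1 (0.14, SE 0.0769, adjusted p = 0.137) and Hspe1 (−0.04, SE 0.0406, adjusted p = 0.380) did not pass the threshold. Hspe1 had coefficients of variation of 3.40% to 6.57% within sample types, which makes its small difference a precise one.

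**Figure D2:**
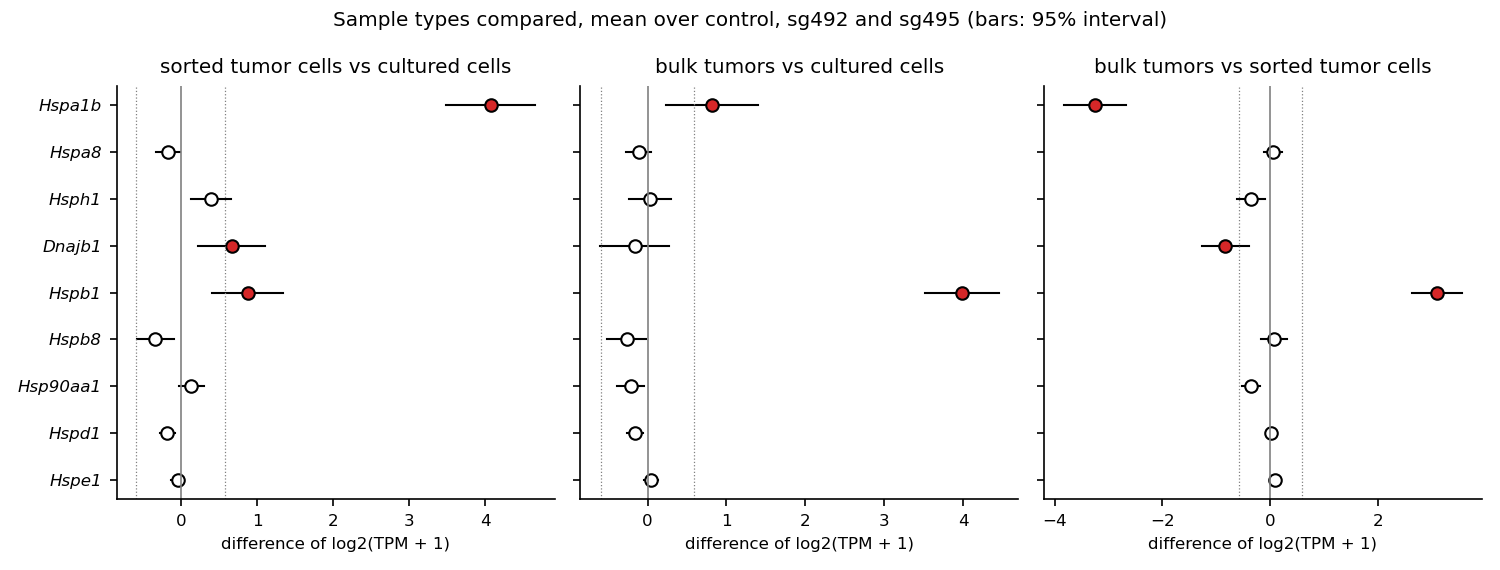
Difference of log2(TPM + 1) between sample types for each tested member, as points with 95% confidence intervals of the 18-library limma model; dotted lines mark 1.5-fold and filled points are called genes; Hspb1 is listed at 0 in culture. Hspa1b stands at 4.07 for sorted against cultured cells and at −3.25 for bulk tumors against sorted cells, while Hspe1, Hspa8, Hspd1 and Hsp90aa1 lie inside the dotted lines.

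Hspb1 and Hspa1b were higher in bulk tumors than in cultured cells. Of the 9 members tested, these 2 were called higher in bulk tumors and 0 lower, beside 15.8% of all genes called higher and 3.95% called lower, with a median log2 fold change of −0.11 over the members and 0.02 over all genes. Hspb1 held 16.6 and 12.02 TPM in control bulk tumors, 13.41 and 17.56 with sg492 and 10.42 and 21.16 with sg495, all above cultured cells, where it was listed at 0 (adjusted p = 5.31e-09). It passed the filter through these bulk libraries. Leukocyte, fibroblast and endothelial markers were also higher in bulk tumors (14 of 14, 7 of 7 and 6 of 6 tested markers called). In cultured cells alone, 3, 2 and 1 markers of these lists averaged 1 TPM or more. Most were thus tested through their level in bulk tumors, so that the filter largely set these calls. The part of these markers in the level of Hspb1 was not tested. Hspa1b rose by 0.81 on the log2 scale (SE 0.268, adjusted p = 0.0190), from a range of 3.44 to 5.49 TPM in culture to 6.57 to 12.47 TPM in bulk tumors. Without replicate 1 of the control bulk tumors, its highest library, the value was 0.68 and the adjusted p 0.0598, and in control alone it was 1.05 with an adjusted p of 0.0937. Hsp90aa1, at 1461.25 to 1754.49 TPM in bulk tumors and 1794.9 to 1996.52 in culture, was lower by less than 1.5-fold (−0.21, SE 0.0769, adjusted p = 0.0291) with no overlap of the ranges. Hspd1 showed −0.15 (SE 0.0466, adjusted p = 0.0118).

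Hspa1a, the near-identical neighbor of Hspa1b, was low in all 18 libraries. Bulk tumors held 1.22 and 0.57 TPM in control, 1.59 and 1.59 with sg492 and 1.12 and 1.7 with sg495. Sorted cells held 0 and 0.13, 0 and 0.56, and 0.06 and 1.78 TPM in the same order, although Hspa1b was there at 38.11 TPM or more. Hspa1a thus made up 7.93% to 20.6% of the summed TPM of the pair in bulk tumors, 0% to 0.589% in sorted cells and 0% in culture. Because reads of these copies are hard to tell apart, these shares describe the authors' assignment of reads. The sum of the pair in sorted cells was 26.2 times that of cultured cells and 11.5 times that of bulk tumors (17.1 and 7.50 times without replicate 2 of sorted sg495), and the pair summed to 1 gene gave 1.01 for bulk tumors against culture (adjusted p = 0.00591).

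Comparing bulk tumors with sorted cells, 1 of 9 members was called higher and 2 lower, beside 9.26% of all genes called higher and 4.31% called lower (median log2 fold change 0.02 over the members and 0.05 over all genes). Hspb1 was higher in bulk tumors by 3.10 (SE 0.214, adjusted p = 9.91e-08), on a scale that understates the ratio of mean TPM of 16.3. With a mean of 0.935 TPM in sorted cells, it was tested only through its level in bulk tumors, so that the filter favored this call. Hspa1b was lower by −3.25 (SE 0.268, adjusted p = 5.76e-07). Dnajb1, at 30.48 to 42.78 TPM in bulk tumors, was lower by −0.83 (SE 0.201, adjusted p = 0.00416). In control libraries alone the difference of Dnajb1 was −0.18 (adjusted p = 0.748), so that this call rests on the sorted libraries labeled sg492 and sg495. Hsp90aa1 (−0.35, SE 0.0769, adjusted p = 0.00223) and Hsph1 (−0.36, SE 0.121, adjusted p = 0.0262) were lower in bulk tumors by less than 1.5-fold.

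Immediate-early genes, which respond within a short time to many stimuli, moved with Hspa1b between sample types. Of the 19 tested, 18 were called higher and 1 lower in sorted against cultured cells, with a median log2 fold change of 3.18. Fosb (7.69), Fos (7.05) and Egr1 (5.68), which encode AP-1 and zinc finger transcription factors, rose most, and Ier3 fell by 1.14. Their summed TPM was 1758.11 to 2738.47 in sorted cells, 434.84 to 562.51 in bulk tumors and 318 to 510.57 in cultured cells. In cultured cells alone, 15 of the 21 listed immediate-early genes averaged 1 TPM or more. Fosb (0.07 to 0.38 TPM) and Egr1 (0.05 to 0.32 TPM) did not. They were tested through their level in the tumor samples, so that the filter favored these calls. Only sorted cells are described as digested at 30 °C, so that digestion, sorting and sample type cannot be told apart. Of the markers of other cells, 2 of 14 for leukocytes, 0 of 7 for fibroblasts and 1 of 6 for endothelial cells (Vwf) were called higher in sorted than in cultured cells, beside 14.6% of all genes. Most of these markers were tested through their level in bulk tumors. In sorted cells alone, 3, 2 and 2 markers of these lists averaged 1 TPM or more. The leukocyte marker Lyz2 (−0.87) and the fibroblast marker Pdgfrb (−0.70) were called lower, beside 8.99%. The part of either group of genes in the level of Hspa1b was not tested.

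Calls in the wider chaperone lists between sorted and cultured cells are to be read beside 14.6% of all genes called higher and 8.99% called lower. Of the other HSP70 and HSP110 genes 0 of 6 were called. Cochaperones with a J domain or a nucleotide exchange role had 2 of 17 called higher, the J-domain genes Dnajb2 (1.02, adjusted p = 1.30e-07) and Dnajb4 (0.90, adjusted p = 1.17e-05), and 1 called lower, the ubiquitin ligase gene Stub1 (−0.60). The other small heat shock genes had 2 of 5 called lower, Cryab (−1.15) and Hspb2 (−0.84), opposite in sign to Hspb1. Ahsa2 (−0.62), an activator of the HSP90 ATPase, was the single call among 11 HSP90 genes and cochaperones, and it was lower.

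Chaperones of other compartments are counted beside the same shares of all genes. The cytosolic chaperonin TRiC, which folds actin and tubulin, had, together with its partner prefoldin, 0 of 14 genes called. Among 9 other mitochondrial chaperone genes Grpel2, the nucleotide exchange factor of mitochondrial HSP70, fell by 0.68. In the endoplasmic reticulum 1 of 15 genes was called higher, the J-domain gene Dnajb9 (2.29), and 1 lower, Calr (−0.70), which encodes calreticulin. The medians of the chaperone lists ran from −0.26 to 0.06. Hsf1, the gene of the factor itself, held 43.39 to 52.32 TPM in sorted cells, 42.61 to 54.18 in bulk tumors and 45.66 to 50.98 in culture (sorted against cultured −0.06, adjusted p = 0.364).

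**Figure D3:**
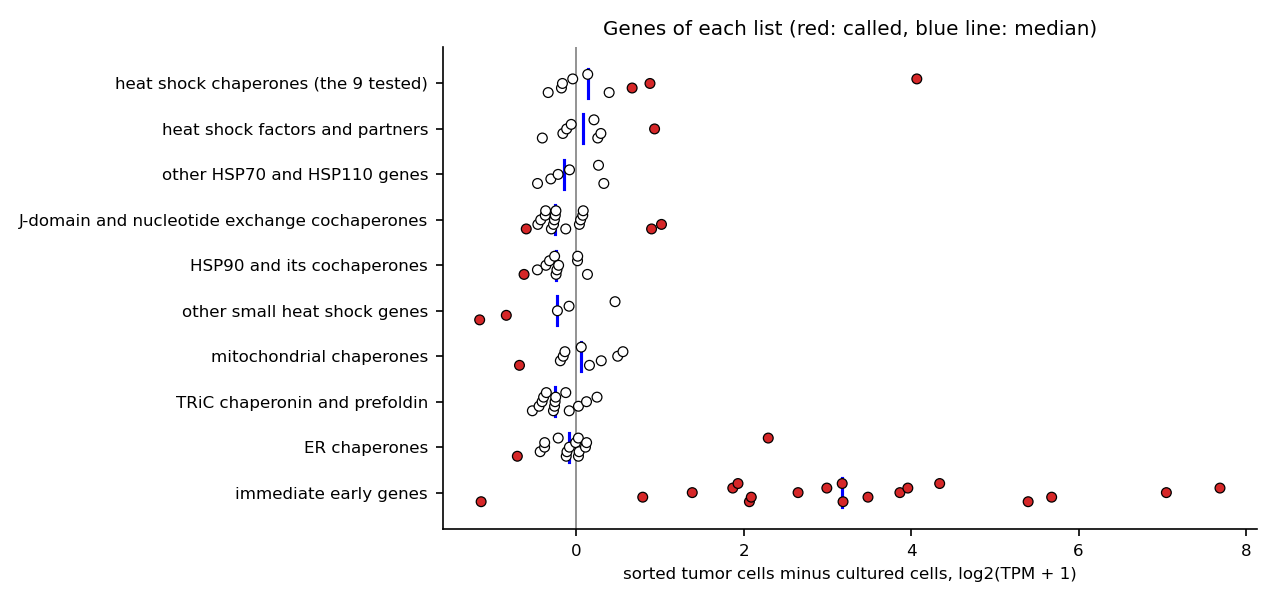
Difference of log2(TPM + 1) between sorted and cultured cells for the genes of each list, one row per list, with 1 point per tested gene, filled where called, and a blue line at the list's median; the top row holds the 9 members tested. Immediate-early genes center on 3.18, while the medians of the wider chaperone lists lie between −0.26 and 0.06.

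Between bulk tumors and sorted cells, several of these genes showed the opposite sign. Dnajb9 (−1.52), Dnajb4 (−1.07) and Dnajb2 (−0.60) were called lower in bulk tumors. Of the immediate-early genes, 17 of 19 were called lower with a median of −1.95, beside 4.31% of all genes called lower and 9.26% called higher. Both comparisons share the sorted libraries. Hspb7, a small heat shock gene of heart and muscle, was called higher in bulk tumors against sorted cells (1.75) and against cultured cells (1.67), as was Hspb1. Hspb1 passed the filter only through bulk tumors. Of the other small heat shock genes, 5 averaged 1 TPM or more in bulk tumors, and 4 did in sorted or in cultured cells alone. The filter thus favored calls that are higher in bulk tumors. Against culture, Hspa12b (0.65) and Dnajb9 (0.77) were called higher and Cryab lower (−0.89), beside 15.8% of all genes called higher and 3.95% called lower.

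The guides were compared with control within each sample type, each in a limma model of its 6 libraries. In none of the 6 comparisons was a member called. In cultured cells 0 of 8 tested members were called with sg495, beside 2.77% of all 12007 genes, and 0 of 8 with sg492, beside 0.05%. In sorted cells the counts were 0 of 8 with sg495, beside 0.899% of 12899 genes, and 0 of 8 in libraries labeled sg492, beside 0.0388%. In bulk tumors 0 of 10 were called with sg495, beside 0.0293% of 13639 genes, and 0 of 10 with sg492, beside 0%. These counts of members do not stand apart from the background. At an unadjusted p under 0.05, members numbered 6 and 1 in cultured cells, 1 and 1 in sorted cells, and 1 and 0 in bulk tumors for sg495 and sg492. Of all genes, 27.8% and 10.54% had such a p in cultured cells, 15.6% and 7.13% in sorted cells, and 15.7% and 8.30% in bulk tumors.

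**Figure D4:**
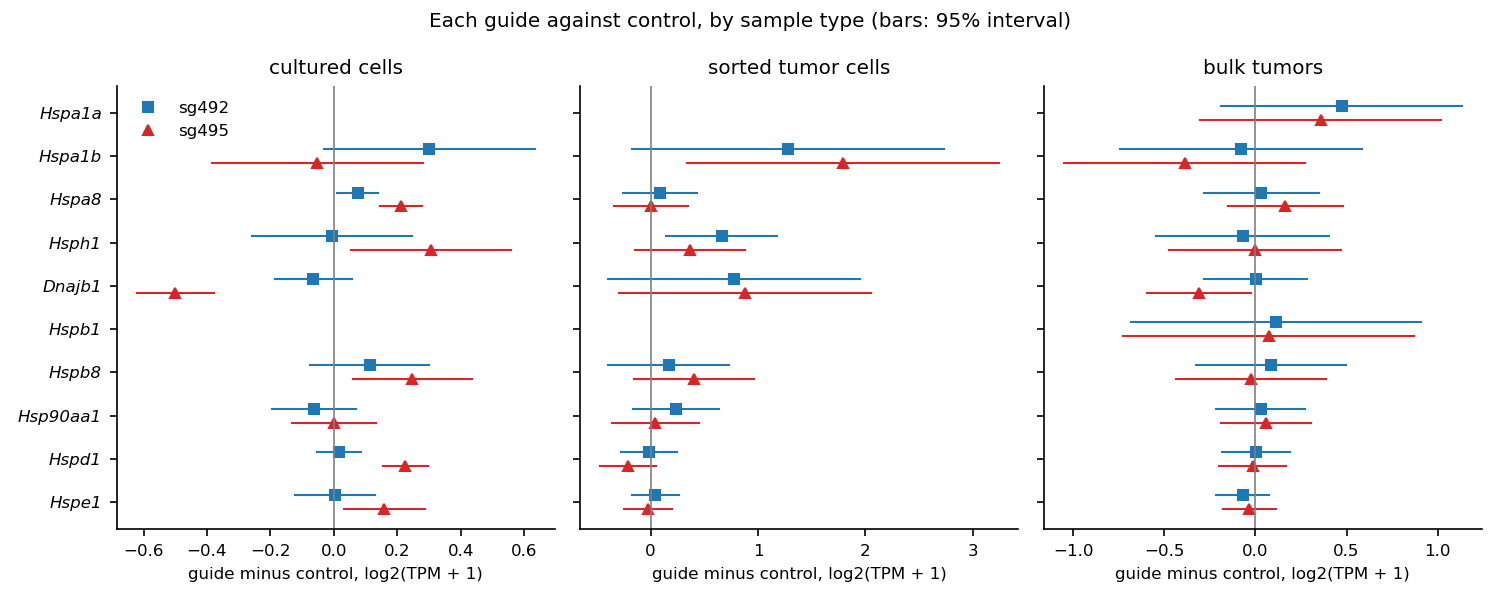
Difference of log2(TPM + 1) from control for each tested member with sg492 and sg495, one panel per sample type, with 95% confidence intervals of the limma fit. Dnajb1 with sg495 is at −0.50 in culture, with a narrow interval that does not reach 0, and at 0.88 in sorted cells, with a wide interval that spans 0.

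In cultured cells small shifts with sg495 were measured precisely. Dnajb1 was at 33.42 and 32.5 TPM with sg495 against 46.2 and 47.89 in control, and 45.22 and 44.6 with sg492. Both sg495 libraries were below all others of the culture, with a difference of −0.50 (SE 0.05, adjusted p = 0.00407) that stayed under 1.5-fold. Hspa8 rose by less than 1.5-fold, to 4334.82 and 4401.1 TPM from 3776.07 and 3766.83 (0.21, SE 0.0269, adjusted p = 0.00783). Hspd1 likewise was at 1454.21 and 1428.41 TPM against 1232.7 and 1232.14 (0.23, SE 0.0288, adjusted p = 0.00790). These 3 genes had adjusted p-values under 0.05 without reaching the fold threshold. In a fit of all 18 libraries the adjusted p was 0.530 for Dnajb1, 0.447 for Hspa8 and 0.142 for Hspd1. Without either sg495 library in turn, it was 0.0641 and 0.0699 for Hspa8 and 0.0717 and 0.0520 for Hspd1. Hsph1 (0.31, adjusted p = 0.12), Hspb8 (0.25, adjusted p = 0.0972) and Hspe1 (0.16, adjusted p = 0.111) did not pass.

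Counted by overlap, both sg495 libraries in culture lay above both controls for 5 of the 8 chaperones tested (Hspa8, Hsph1, Hspb8, Hspd1 and Hspe1), against 27.5% of all genes tested. They lay below both controls for 1, Dnajb1, as for 28.9% of all genes. With sg492 in culture the differences ran from −0.07 to 0.30, with a lowest adjusted p of 0.423.

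Dnajb1 lies on chromosome 8, as does Nr2f6, and the genes of this chromosome were lower as a whole in sg495 libraries. The median log2 difference of chromosome 8 genes was −0.33 over 645 genes in culture, −0.34 over 684 in sorted cells and −0.25 over 717 in bulk tumors. Relative to that median Dnajb1 was at −0.17 in culture, with 19.1% of chromosome 8 genes at or below it. In bulk tumors Dnajb1 was at −0.06 relative to the median (35.8%), and in sorted cells at 1.23 (98.5%). With chromosome 8 centered on its own median, Dnajb1 in culture gave −0.16 (adjusted p = 0.127). Among the wider lists in culture, Hsbp1, the gene of a small HSF1-binding protein, fell by 0.62 with sg495 (adjusted p = 0.00208). Of the immediate-early genes, 3 of 15 were called lower, Ier3 (−1.43), Jund (−0.79) and Atf3 (−0.69). Of all 12007 genes, 2.77% were called in either direction and 244 genes were called lower. Whether Hsbp1, Ier3, Jund and Atf3 lie on chromosome 8 is not stated here. Unlike Dnajb1, these genes were not set against the median of chromosome 8, and the part of its shift in their values was not tested.

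In sorted cells Hspa1b was lowest in the control libraries, and no member passed the test. Relative to the control mean, Hspa1b was at 2.46 and 2.45 in the libraries labeled sg492 and at 1.70 and 7.18 in sg495. Dnajb1 was at 1.90 and 1.54, and at 1.05 and 3.25. Hsph1 was at 1.69 and 1.49, and at 1.03 and 1.61. Of sg495, replicate 2 was thus far above replicate 1, which lay near control for Dnajb1 and Hsph1. The log2 difference of Hspa1b with sg495 was 1.79 (SE 0.596, 95% CI 0.34 to 3.24, adjusted p = 0.242), and in libraries labeled sg492 it was 1.28 (SE 0.596, adjusted p = 0.714).

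**Figure D5:**
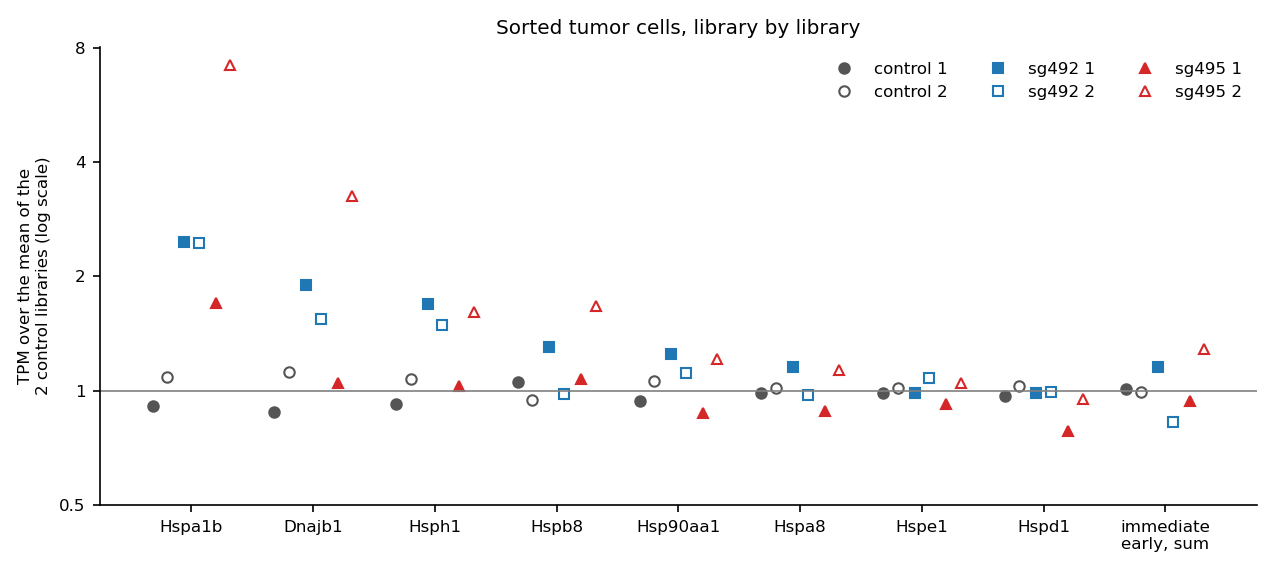
TPM of the chaperones detected in all sorted controls at over 1 TPM, and of the summed immediate-early genes, in each sorted library divided by the mean of the 2 sorted control libraries; each point is 1 library, the line at 1 is the control mean, and the axis is logarithmic. Replicate 2 of sg495 is highest for Hspa1b (7.18) and Dnajb1 (3.25), while the libraries labeled sg492 lie at 2.46 and 2.45 for Hspa1b.

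Dnajb1 gave 0.88 with sg495 (SE 0.482, adjusted p = 0.445) and 0.77 in libraries labeled sg492 (SE 0.482, adjusted p = 0.762). Hsph1 gave 0.37 (SE 0.212, adjusted p = 0.466) and 0.66 (SE 0.212, adjusted p = 0.635). Hspd1, in contrast, was at 952.63 and 1155.31 TPM with sg495 against 1179.03 and 1253.37 in control (−0.21, SE 0.106, adjusted p = 0.404). Of the 8 chaperones tested in sorted cells, Hspa1b, Hsph1, Dnajb1 and Hsp90aa1 had both libraries labeled sg492 above both controls, against 20.4% of all genes tested. Hspb1 did so too, but averaged under 1 TPM there and was not tested. Both sg495 libraries lay above both controls for 2, Hspa1b and Hspb8, against 17.9% of all genes, and below them for 1, Hspd1, against 31.5%.

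Replicate 2 of sorted sg495 was also the highest sorted library for other stress genes, which were chosen after their values were seen. Bag3, a cochaperone of HSP70 and partner of Hspb8, was at 65.22 TPM there and at 34.09 to 42.18 in the other sorted libraries. Fos (467.74 TPM), Jun (237.7) and Atf3 (341.84) were each at their highest there, and the summed immediate-early genes stood at 1.28 times control against 0.939 in replicate 1. Replicate 1 held 8.02% of its TPM in mitochondrial genes, against 3.45% to 4.73% in the other sorted libraries. Without replicate 1, Hspa1b with sg495 gave 2.82 and an adjusted p of 0.0316, and in a fit of all 18 libraries the adjusted p was 0.0322 at the same 1.79. Without replicate 2, the sg495 differences in sorted cells were 0.76 for Hspa1b (adjusted p = 0.146), 0.076 for Dnajb1 (adjusted p = 0.882) and 0.043 for Hsph1 (adjusted p = 0.901). Also without replicate 2, Dnajb1 in sorted against cultured cells, averaged over guides, was at 0.40 (adjusted p = 0.000914), and in bulk tumors against sorted cells at −0.56 (adjusted p = 0.000129), both under the fold threshold. Among the lists, Egr1 rose by 1.15 with sg495 (adjusted p = 0.04).

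In bulk tumors differences from control ran from −0.39 to 0.36 with sg495 and from −0.08 to 0.47 with sg492, with lowest adjusted p-values of 0.277 and 0.678. Dnajb1 was at 30.48 and 32.73 TPM with sg495 and 42.78 and 36.25 in control (−0.31, SE 0.117, adjusted p = 0.277). Hspa1b was at 6.9 and 6.57 TPM with sg495 and at 12.47 and 6.62 in control (−0.39, SE 0.273, adjusted p = 0.556). The groups of Hspa1b overlapped, and without replicate 1 of the control its difference was 0.02. Over these libraries Hsp90aa1 was at 1461.25 to 1754.49 TPM, Hspd1 at 1098.89 to 1226.54 and Hspe1 at 590.06 to 654.1, with no member passing the test.

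Whether the sg495 effect differed from one sample type to another was tested by interaction contrasts. Between sorted and cultured cells 0 of 9 members were called, beside 2.51% of all genes, and between bulk tumors and sorted cells 0 of 9, beside 0.122%. The sg495 effect was larger in sorted than in cultured cells by 1.84 for Hspa1b (SE 0.656, adjusted p = 0.151) and by 1.38 for Dnajb1 (SE 0.492, adjusted p = 0.151). For Hspd1, which was above control in culture and below it in sorted cells, the difference was −0.44 (SE 0.114, adjusted p = 0.0547). In bulk tumors minus sorted cells it was −2.18 for Hspa1b (SE 0.656, adjusted p = 0.141) and −1.19 for Dnajb1 (SE 0.492, adjusted p = 0.264). These outcomes turned on which replicate of sorted sg495 was used. Without replicate 1, the sorted minus cultured difference was 2.87 for Hspa1b (adjusted p = 0.00231) and 2.19 for Dnajb1 (adjusted p = 0.000705). Likewise the bulk minus sorted difference was then −3.21 for Hspa1b and −2.0 for Dnajb1, both with an adjusted p of 0.00642. Without replicate 2, the sorted minus cultured difference was 0.81 for Hspa1b (adjusted p = 0.204) and 0.58 for Dnajb1 (adjusted p = 0.133). The bulk minus sorted difference was then −1.15 for Hspa1b (adjusted p = 0.119) and −0.39 for Dnajb1 (adjusted p = 0.340). For Hspd1 the sorted minus cultured difference without replicate 2 was −0.58 (adjusted p = 0.0101), under the fold threshold.

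Genes whose pattern was most like that of the chaperones were sought among 13143 others, by Pearson r over the 18 libraries with the mean standardized log2(TPM + 1) of the 10 members. The libraries share guides and sample types, so r is given as a description. Tmcc3 had the highest r (0.862), followed by Crim1 (0.763), Pspc1 (0.743), Rpl27a (0.730) and Ptpmt1 (0.729). Tmcc3 was at 3.75 to 9.45 TPM in sorted cells, 4.24 to 7.16 in bulk tumors and 4.52 to 5.8 in culture.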

How the data were processed

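Poly(A) RNA of B16F10 tumors, of tumor cells sorted from them and of cultured cells was sequenced from a single end with a directional kit in reads of 75 nt. Adapters were removed by the authors (Cutadapt 2.3), reads were mapped to mm10 (STAR 2.7.0d), genes were quantified (RSEM 1.3.1), and the authors deposited TPM for 47643 genes in 23 libraries. TPM hold no counts, so the authors' count test with DESeq2 was not repeated and no counting interval could be derived. RSEM divides reads that fit near-identical genes such as Hspa1a and Hspa1b between them.

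The 10 members and all lists were chosen with earlier results of these data known, and the other genes named are Nr2f6, Hsf1, at most 3 called genes per list and direction, the 5 genes most like the members, cell type markers of the label check, and genes said to have been chosen after their values were seen. TPM as deposited were tested as log2(TPM + 1) with limma 3.58.1 in R 4.3.3 (eBayes with trend, 2-sided), for genes averaging 1 TPM or more over the libraries fitted. Guides were compared within a sample type, sample types and interactions in 1 model of 18 libraries with a mean for each of 9 groups. As alternatives, the pseudocount was set to 0.1, the filter was dropped or raised to 5 TPM, TPM were scaled by median of ratios, and fits were made with a replicate block, eBayes without trend, the sum of Hspa1a and Hspa1b, other sets of libraries and each library left out. The fit was tested on simulated data. Some results of the list of heat shock factors and partners are not reported here. Positions came from GENCODE M21 (47224 genes matched), and figures from matplotlib 3.10.9.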

Additional observations from a re-analysis of the deposited data

Results flagged for a closer look

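Hspd1 with sg495 lay on opposite sides of control in 2 sample types and was called in neither. The mean TPM was 0.867 times control in sorted cells (limma adjusted p = 0.404), with both libraries below both controls, as for 31.5% of all genes tested. In cultured cells it was 1.17 times control, with both above, as for 27.5% of all genes. The interaction test between these sample types gave −0.44 on the log2 scale and did not pass (limma adjusted p = 0.0547).

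Dnajb1 in libraries labeled sg492 was at 1.72 times control in sorted cells, with both libraries above both controls, as for 20.4% of all genes tested. In cultured cells it was at 0.955 times control with both below, as for 14.25% of all genes. Neither passed the test (limma adjusted p = 0.762 and 0.683), and the gene was picked by searching the members for opposite directions. The difference between the sample types was not tested.

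In the 5 libraries labeled IgG control or anti-PD1, which enter no comparison above, Hspa1a was at 88.45 TPM or more and Hspa1b at 87.98 TPM or more. The highest values in the 6 control libraries of the 3 sample types were 1.22 TPM for Hspa1a and 45.47 TPM for Hspa1b. With edited cells included, the highest were 1.78 and 300.21 TPM, both in replicate 2 of sorted sg495. The range of Hspa1b then overlapped that of the IgG and anti-PD1 libraries.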

How the results depend on the processing

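With 2 libraries per group, and with depth unknown from TPM, the differences of Hspa1b, Dnajb1 and Hsph1 between sorted groups had standard errors of 0.212 to 0.596 on the log2 scale. In control libraries alone, 1 member was called in sorted against cultured cells and 1 in bulk tumors against cultured cells, and the sign turned for Dnajb1 (−0.072) and Hspe1 (0.0043) in the first and for Hsph1 in bulk tumors against sorted cells (0.0069). The cause was not tested. In a fit of all 18 libraries 1 member, Hspa1b, was called with sg495 in sorted cells.

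With each library left out in turn, the members called numbered 0 to 1 with sg495 in sorted cells, 1 to 2 in bulk tumors against cultured cells, and 0 to 2 in both interactions. The value of Hspa1b with sg495 in bulk tumors ran from −0.80 to 0.021, the latter without replicate 1 of the control. With sg492 in bulk tumors Hspa1b, the lowest member at −0.078, ran from −0.49 to 0.33 over its alternatives.

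Same-numbered libraries did not deviate together (correlations of −0.126 to 0.0507). These correlations cannot show whether such libraries share a batch or an origin, which the sources do not state. With the number as a replicate block, the members called numbered 0 in every guide comparison and 3, 2 and 3 between sample types, and no call of a member changed. For Dnajb1 with sg495 in culture the adjusted p was 0.0139 with the block, and over all its alternatives it ran from 0.00249 to 0.530. For Hspa8 and Hspd1 there it ran from 0.00604 to 0.447 and from 0.00584 to 0.142. With the replicate block and crossed numbers for sg492 in bulk tumors, a pairing added after the data were seen, 0 members were called in bulk tumors, as were 0 when chromosome 8 was centered on its own median, also added then.

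Counts over all genes moved more. With sg495 they ran from 3 to 399 around 116 in sorted cells, from 0 to 395 around 4 in bulk tumors and from 165 to 366 around 332 in culture. With sg492 they ran from 0 to 14 around 5, from 0 to 66 around 0 and from 0 to 6 around 6. Between sample types the lowest counts were 1478 of 2599 for bulk against culture and 983 of 1785 for bulk against sorted cells, where a mean of 5 TPM left fewer genes to test. The interactions ran from 136 to 390 around 330 and from 6 to 130 around 16. Median-of-ratios scaling moved the share of calls that were higher from 67.2% to 80.6% with sg495 in sorted cells and from 56.3% to 45.5% in the bulk minus sorted interaction.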

Other observations

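The 5 libraries labeled IgG control (2) or anti-PD1 (3) held several chaperones outside their range in the 18 libraries, while Hspa1b, Hspa8, Hsph1, Dnajb1, Hspb1 and Hsp90aa1 overlapped it. Hspa1a was at 248.55 and 260.84 TPM with IgG and at 88.45, 162.86 and 125.53 with anti-PD1. Hspa1b was at 260.39 and 232.68, and at 87.98, 165.16 and 136.04 TPM. Hspa1a made up 48.0% to 52.9% of the summed TPM of the pair, against 0% to 20.6% in the other libraries. The mitochondrial chaperones were low there, with Hspd1 at 164.15 to 448.31 TPM and Hspe1 at 164.37 to 303.79 TPM, against at least 952.63 and 534.15 TPM elsewhere. Hspb8 was at 3.06 to 5.23 TPM, below every one of the 18 libraries. Hspb1, at 7.43 to 21.78 TPM, overlapped the range of bulk tumors. Leukocyte markers summed to 7620.78 to 12155.2 TPM and melanocyte markers to 1707.51 to 5213.7 TPM in these libraries, and mitochondrial genes took 8.63% to 21.9% of the TPM, against 2.56% to 8.02% in the 18. Their part in the chaperone levels was not tested.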
